A study of Mus musculus with 4 samples.

Results

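The 8 genes described here encode the enzymes that free arachidonic acid from membranes and turn it into prostaglandins and thromboxane. They are Pla2g4a, Ptgs1, Ptgs2, Ptges, Ptges2, Ptges3, Hpgds and Tbxas1, chosen by name and found as 8 of 55416 gene identifiers in the deposited tables. Poly-A selected RNA was sequenced from organoids of the mouse small intestine, epithelial cultures that grow in Matrigel, a basement-membrane gel. The adult group held 2 libraries of organoids from C57BL/6 mice 4 to 8 weeks old, and the fetal group 2 libraries of organoids from C57BL/6 embryos at E15.5. Both stages were kept in the same medium, IntestiCult, with no genetic change or drug named for either. The labels do not say whether the 2 replicates of a stage came from separate animals or cultures, so the p-values rest on library-to-library spread that may be only technical. The series title ties regeneration of the intestine to induction of Ptgs1, and the comparison gives the level of that gene and its partners at each stage.

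Prostaglandin synthesis runs in 3 steps. Cytosolic phospholipase A2, encoded by Pla2g4a, cuts arachidonic acid from membrane phospholipids. The cyclooxygenases, COX-1 from Ptgs1 and COX-2 from Ptgs2, convert it to prostaglandin H2, the shared precursor of all prostanoids. COX-1 is known as the constitutive form and COX-2 as the form induced by growth factors, cytokines and injury. Terminal synthases then set the product: Ptges, Ptges2 and Ptges3 are named for prostaglandin E2, Hpgds makes prostaglandin D2 and Tbxas1 makes thromboxane A2. In the intestine, prostaglandin E2 is known for its part in epithelial repair after injury, and tuft cells, a rare chemosensory type, are a known source of Ptgs1 and Hpgds transcripts.

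Upstream sequence is shown for the 3 members with the largest change between stages, Ptgs1, Ptgs2 and Ptges, and for Ptges3, the most abundant member. Each line gives the 250 bases before the RefSeq transcription start, 5' to 3' on the gene's strand, in build GRCm38.p6; which build lies behind the expression tables was not stated. Capitals mark matches on either strand to any of 8 short motifs: TATAAA (core promoter), GGGCGG (GC box), CACGTG (E-box), CGTCA (core of a cyclic-AMP response element), TGANTCA (AP-1), GGAATG (TEAD), CCAAT (NF-Y) and TTGCNNAA (C/EBP).
Ptgs1, chr2:36230176-36230425, plus strand: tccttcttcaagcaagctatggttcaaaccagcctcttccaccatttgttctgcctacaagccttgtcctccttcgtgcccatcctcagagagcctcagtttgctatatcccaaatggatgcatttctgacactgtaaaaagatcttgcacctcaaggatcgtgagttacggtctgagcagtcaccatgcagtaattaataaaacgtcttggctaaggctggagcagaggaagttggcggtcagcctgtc
Ptgs2, chr1:150099781-150100030, plus strand: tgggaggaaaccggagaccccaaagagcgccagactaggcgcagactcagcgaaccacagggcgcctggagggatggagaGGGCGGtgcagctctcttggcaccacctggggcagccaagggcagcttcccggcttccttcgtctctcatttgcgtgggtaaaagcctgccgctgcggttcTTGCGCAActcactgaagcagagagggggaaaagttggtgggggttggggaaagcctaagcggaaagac
Ptges, chr2:30903298-30903547, minus strand: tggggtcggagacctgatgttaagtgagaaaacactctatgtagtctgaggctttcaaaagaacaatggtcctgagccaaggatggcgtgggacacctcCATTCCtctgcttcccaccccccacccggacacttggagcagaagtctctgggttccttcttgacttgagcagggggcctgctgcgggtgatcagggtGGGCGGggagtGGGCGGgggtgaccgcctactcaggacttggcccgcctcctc
Ptges3, chr10:128058732-128058981, plus strand: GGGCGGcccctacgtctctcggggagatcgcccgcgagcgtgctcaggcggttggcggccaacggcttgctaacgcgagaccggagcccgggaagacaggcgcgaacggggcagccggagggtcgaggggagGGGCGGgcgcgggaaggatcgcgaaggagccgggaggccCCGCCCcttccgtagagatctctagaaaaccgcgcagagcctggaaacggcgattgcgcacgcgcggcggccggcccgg

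The Ptgs2 window held 1 GC box and 1 C/EBP match, the second of these the capitals nearer to the start. The Ptges window held 2 GC boxes and 1 TEAD match, and the Ptges3 window 3 GC boxes. None of the 8 motifs matched in the Ptgs1 window, which says only that these letters are not in it. Among 32851 promoter windows of the same length, a GC box was present in 32.7%, a C/EBP match in 9.56% and a TEAD match in 12.6%. GC content was 48% for Ptgs1, 61.6% for Ptgs2, 59.6% for Ptges and 73.2% for Ptges3, against a median of 52.4% over all windows. The Ptges3 window held 38 CpG dinucleotides and the Ptgs1 window 5, where the median window held 6. The matches describe the sequence and show no binding.

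The adult libraries held 12449681 and 10862147 estimated counts and the fetal libraries 13061585 and 12184259. Of 10 markers of intestinal epithelium, all 10 were found at both stages, with summed levels of 3413 to 3433 TPM in adult and 7170 to 7333 TPM in fetal libraries. Of these, 4 were higher (Krt8, Krt18, Krt19 and Cdh1), 5 were lower (Epcam, Vil1, Cdx1, Cldn7 and Lgr5) and Cdx2 was not called. Krt19 alone went from a mean of 722 to 2329 TPM and Krt8 from 650 to 1678 TPM, while Epcam stood at 706 and 701 TPM. TPM, which scales counts by gene length, is used below wherever genes are compared with each other. Levels of 1 gene between libraries are CPM, counts scaled to library size with TMM factors, a correction for library composition. A gene is called higher or lower in fetal organoids at a Benjamini-Hochberg adjusted p under 0.05 in the quasi-likelihood test of edgeR over the 14271 genes tested. The composition correction matters here: mitochondrial transcripts took 17.5% and 17.6% of adult but 6.98% and 7.82% of fetal counts. Over all genes tested, the median change on the log2 scale was 0.01 after TMM, 0.25 with plain library totals and 0.36 for log2(TPM + 1).

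Both cyclooxygenases, the inducible E synthase Ptges and the phospholipase Pla2g4a were higher in fetal organoids, the first 3 of them by about an order of magnitude or more, and Ptges3 was slightly higher. Of the 8 members 5 were higher, 1 (Ptges2) was lower and 2 (Hpgds and Tbxas1) were not called, where 66.5% of all genes tested were called, 33.9% higher and 32.7% lower. The libraries of the stages did not overlap in CPM for 7 members (82.7% of all genes tested), 5 with fetal above adult (41.9%) and 2 below (40.8%). With most genes called, a call by itself sets no member apart, so the sizes of the changes are given below. All 8 passed the filter on low counts. Ptges and Ptgs1, with under 10 counts in each adult library, passed through the fetal libraries alone, so these 2 could only be called higher.

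**Figure D1:**
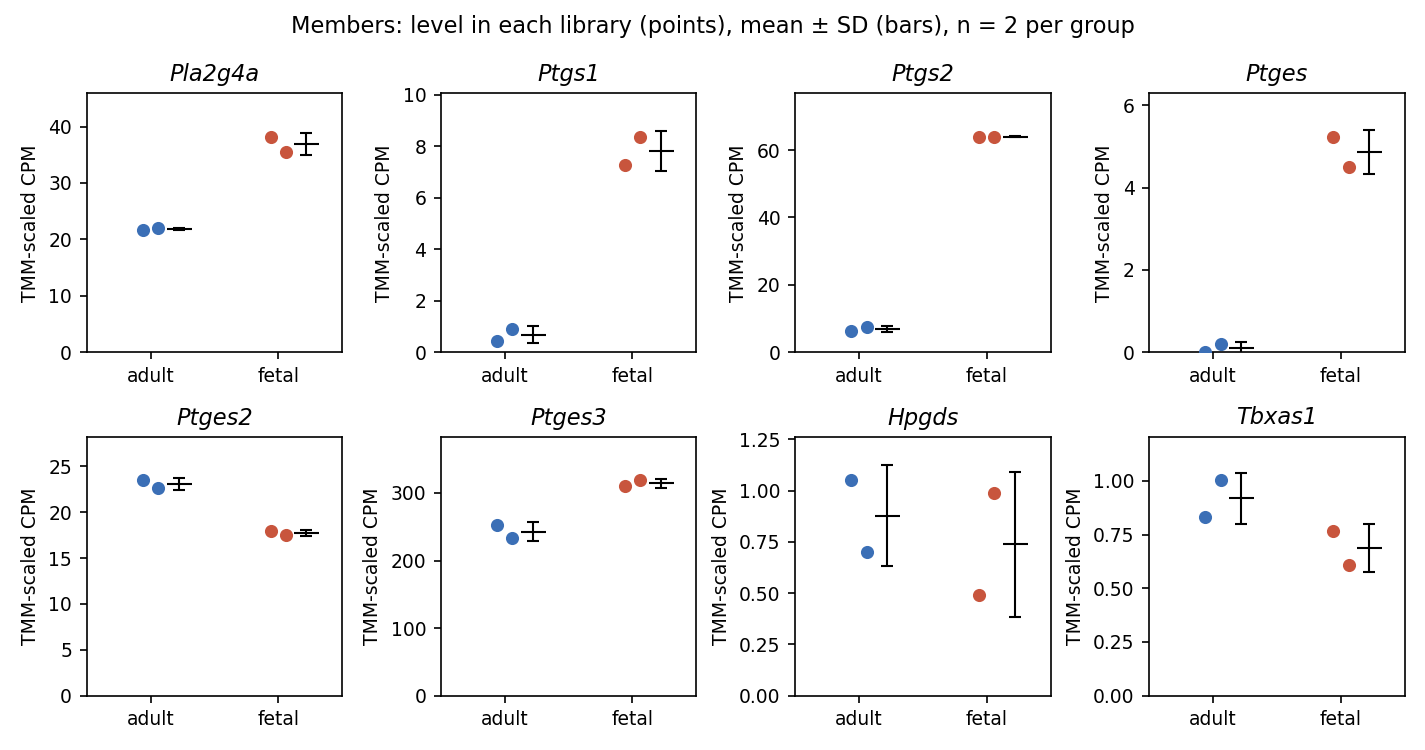
Level of each member in the 4 libraries (points; vertical axes in TMM-scaled CPM, each from 0) with the group mean and SD (bars, n = 2). Fetal points lie above both adult points for Pla2g4a, Ptgs1, Ptgs2, Ptges and Ptges3, below them for Ptges2 and Tbxas1, and mix with them for Hpgds.

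Pla2g4a, which supplies the substrate, had 248 and 219 counts in the adult and 547 and 467 in the fetal libraries. Scaled, these were 21.7 and 21.99 CPM against 38.2 and 35.6 CPM, so both fetal libraries were higher than both adult ones. Pla2g4a rose 1.69-fold (log2 fold change 0.76 ± 0.08 SE, edgeR, adjusted p = 2.21e-06). Without single libraries its log2 fold change was 0.71 to 0.80, and it was 1.00 with library totals.

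Ptgs1, encoding COX-1, had 5 and 9 counts in adult and 104 and 110 in fetal libraries. That is 0.438 and 0.904 CPM against 7.27 and 8.37 CPM, and the groups did not overlap. The log2 fold change was 3.55 (95% interval 2.86 to 4.24, edgeR, adjusted p = 7.13e-07). Because the adult libraries held 14 counts in all, the size of the rise is loosely set: without adult replicate 1 it was 8.53-fold and without adult replicate 2 17.4-fold. Leaving out a fetal library gave 12.6-fold and 10.8-fold.

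Ptgs2, encoding COX-2, had 71 and 75 adult counts and 916 and 838 fetal counts. Its fetal levels were 64.0 and 63.8 CPM, nearly the same in both libraries, and its adult levels 6.22 and 7.53 CPM. Ptgs2 rose by 3.22 on the log2 scale (95% interval 3.03 to 3.42, edgeR, adjusted p = 1.00e-11), with 3.08 to 3.35 when single libraries were left out. It was the best counted of the large changes, resting on 146 adult and 1754 fetal counts.

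Both cyclooxygenases therefore rose. On TPM the balance between them lay within the spread of the adult libraries, which rests on 14 adult Ptgs1 counts. Per length, Ptgs2 made up 80.4% and 68.9% of the summed Ptgs1 and Ptgs2 TPM in adult and 80.2% and 79.6% in fetal libraries, so the groups overlap. In TMM-scaled CPM its share was 93.4% and 89.3% in adult and 89.8% and 88.4% in fetal libraries. There fetal replicate 2 lay below both adult values. Together the 2 genes summed to 2.14 and 2.99 TPM in adult and to 29.1 and 28.4 TPM in fetal libraries, 11.2-fold higher in the mean. Which of the 2 genes rose more depended on the unit, and the difference was not tested. By mean CPM Ptgs1 was 11.7-fold and Ptgs2 9.29-fold higher, whereas by mean TPM the values were 8.56-fold and 12.2-fold.

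The 3 genes named for prostaglandin E synthesis encode unrelated proteins and are given in turn. Ptges, the microsomal enzyme known to be induced together with COX-2, had 0 and 2 counts in adult and 75 and 59 in fetal libraries. The ratio of summed counts, scaled, was 52.2 (95% counting interval 14.2 to 435), and edgeR called it higher (adjusted p = 2.37e-06). The size is loosely set. The fitted log2 fold change was 5.55 with all libraries, 4.53 without adult replicate 1, and 8.98 without adult replicate 2, where the remaining adult library holds no count. The fetal level was still modest, 2.83 and 2.26 TPM against 0.00 and 0.07 TPM in adult.

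Ptges2, a membrane-associated form, had nearly equal raw counts at both stages, 268 and 225 in adult and 257 and 230 in fetal libraries. After TMM scaling these were 23.5 and 22.6 CPM against 18.0 and 17.5 CPM, a called fall by 0.38 on the log2 scale (SE 0.09, edgeR, adjusted p = 0.00255). The call rests on the scaling. With library totals in edgeR the log2 fold change was -0.13 (adjusted p = 0.221), and with limma on log2(TPM + 1) it was -0.03 (adjusted p = 0.788).

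Ptges3 encodes p23, a cytosolic E synthase better known as a co-chaperone of the protein-folding machine HSP90. It stood at 252 and 233 CPM in adult and 310 and 319 CPM in fetal libraries, 1.29-fold higher (log2 fold change 0.37 ± 0.04 SE, edgeR, adjusted p = 3.53e-06). Its counts are fractional in all 4 libraries, and RSEM divides reads that match several genes among them. The near-identical copy Ptges3-ps held 571 and 500 adult counts and 908 and 775 fetal counts, 17.1% and 16.3% of the sum of both genes. Summed with that copy, an alternative added after the data were seen, Ptges3 had a log2 fold change of 0.36 ± 0.04 SE. Of 11 HSP90 partners 9 were also higher and 2 were not called, where 33.9% of all genes tested were higher. Their median log2 fold change was 0.44, against 0.01 over all genes tested. Fkbp5, an HSP90-bound immunophilin, rose by 2.25 on the log2 scale, the inducible HSP90 gene Hsp90aa1 by 0.80 and the co-chaperone Stip1 by 0.56. With library totals and on TPM all 11 were higher.

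Ptges3 dominated the 3 E synthase genes in level, with 87.7% and 87.9% of their summed TPM in adult and 92.2% and 91.5% in fetal libraries. Ptges went from 0% and 0.0375% to 0.890% and 0.727% of that sum. Set against Ptges2 alone, Ptges made up 0% and 0.310% of the pair in adult and 11.4% and 8.56% in fetal libraries. This share depended on the unit. In TMM-scaled CPM, which is not scaled for length, it was 0% and 0.881% in adult and 22.6% and 20.4% in fetal libraries.

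The remaining synthases were barely detected at either stage. Hpgds, the hematopoietic prostaglandin D synthase, had 12 and 7 counts in adult and 7 and 13 in fetal libraries, and the groups overlapped. Its log2 fold change was -0.27 with a 95% interval of -1.37 to 0.82 (edgeR, adjusted p = 0.648). Changes within those bounds were not excluded at this depth. The scaled ratio of summed counts was 0.819 (95% counting interval 0.415 to 1.62). Tbxas1, thromboxane synthase, had 9.51 and 10.0 counts in adult and 11.0 and 8.00 in fetal libraries. Scaled, its fetal levels of 0.769 and 0.609 CPM lay below the adult 0.834 and 1.00 CPM, but the log2 fold change of -0.43 had an interval of -1.41 to 0.54 (edgeR, adjusted p = 0.412). Both genes stayed at 0.76 TPM or less in every library.

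**Figure D2:**
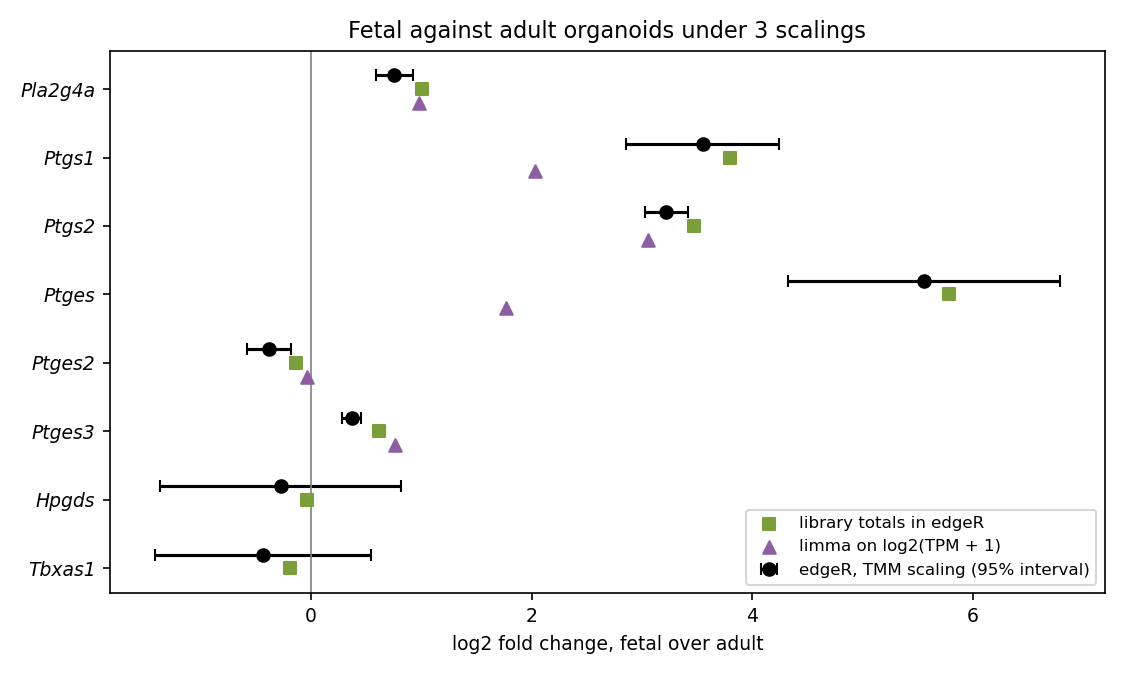
Log2 fold change of fetal over adult organoids for each member (horizontal axis) from edgeR with TMM scaling (circles, with 95% intervals), from edgeR with library totals (squares) and from limma on log2(TPM + 1) (triangles; Hpgds and Tbxas1 did not reach its filter). Ptgs1, Ptgs2 and Ptges lie far to the right under each, with the low genes Ptgs1 and Ptges pulled in by the pseudocount of 1, while Ptges2 lies near 0 in the last 2.

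Ordered by level per length, the adult libraries ran from Ptges3 (176 and 164 TPM) through Ptges2 (24.7 and 22.5 TPM) and Pla2g4a (9.51 and 10.7 TPM) to Ptgs2 (1.72 and 2.06 TPM). Below these, Ptgs1 (0.42 and 0.93 TPM), Tbxas1 (0.29 and 0.76 TPM) and Hpgds (0.41 and 0.39 TPM) did not differ beyond the spread of their libraries, and Ptges came last. In the fetal libraries Ptges3 again led, with 293 and 284 TPM. Ptgs2 (23.3 and 22.6 TPM) had moved up beside Ptges2 (22.02 and 24.15 TPM), with which it overlapped, and lay just above Pla2g4a (21.97 and 19.87 TPM). Ptgs1 followed with 5.77 and 5.79 TPM, then Ptges, then Tbxas1 (0.55 and 0.72 TPM) and Hpgds (0.21 and 0.41 TPM). Without length scaling, fetal Ptgs2 (64.0 and 63.8 CPM) stood well above fetal Ptges2 (18.0 and 17.5 CPM). Among all genes tested, Ptgs2 went from above 19.6% and 21.1% of genes in adult to above 61.3% and 61.5% in fetal libraries, and Ptgs1 from 7.98% and 13.5% to 30.5% and 31.1%.

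The 2 deposited tables together show how long a transcript the counts were assigned to. A count divided by its TPM is proportional to the effective length, an average over a gene's transcripts weighted by their estimated abundance. For genes with 1 transcript in GENCODE M21, 98.0% to 98.4% per library lay within 2% of the annotated length less 74.3 to 74.5 bases, which sets the scale. The effective length of Ptgs2 was 4368 to 4381 bases in the 4 libraries, matching 4379 bases for its full-length coding transcript of 4453 bases. That of Ptgs1 was 1260 and 1165 bases in adult but 2008 and 2245 bases in fetal libraries, between its long transcripts (2867 bases, coding, and 2741 bases) and its short noncoding ones (573 to 697 bases). The groups do not overlap, although the adult values rest on 5 and 9 counts; no test was made. A shorter length raises TPM, which is why the TPM fold of Ptgs1 is below its CPM fold.

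Ptges2 had effective lengths of 1126 to 1300 bases at both stages, far under its coding transcript of 4978 bases, so much of its estimated abundance was given to its 519-base and 765-base transcripts. Its TPM is high for its counts for that reason. Pla2g4a had 2759 and 2454 bases in adult and 2774 and 2778 bases in fetal libraries, so the stages did not overlap, although adult replicate 1 lay close to the fetal values. For Ptges3 (1686 to 1741 bases) the stages overlapped. At 7 to 13 counts per library, Hpgds had 3097 and 2160 bases in adult and 3714 and 3747 bases in fetal libraries. The fetal values exceeded the 3402 bases of its coding transcript. Under M21, much of the estimated abundance there would lie on its 3891-base retained-intron transcript. Tbxas1 ranged from 1313 to 3470 bases with the stages overlapping, against 1916 bases for its longest coding transcript. For Ptges only 1 adult library gave a value, 3438 bases, against 2952 and 3085 bases in fetal libraries.

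**Figure D3:**
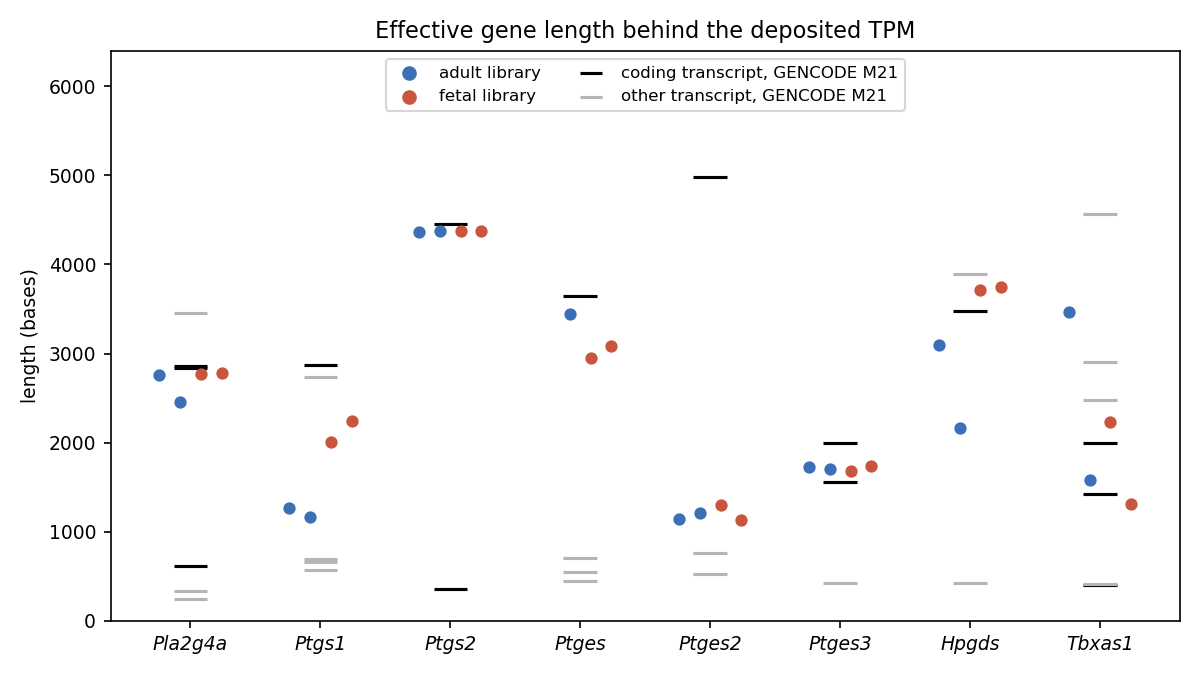
Effective length (bases) of each member in the adult and fetal libraries (points; none where TPM was 0), with the lengths of its GENCODE M21 transcripts (dashes, black where coding). Ptgs2 sits at its full-length transcript in all 4 libraries, whereas Ptgs1 lies at 1165 to 1260 bases in adult and 2008 to 2245 bases in fetal libraries.

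Around these enzymes, 92 other genes of the pathway were sorted by role. Of 67 tested, 29 were higher, 27 lower and 11 not called, with a median log2 fold change of -0.01. Over all genes tested 33.9% were higher and 32.7% lower, the shares to set beside each list below. On log2(TPM + 1) the split was 34 higher and 15 lower, and for all genes it went from 4833 higher and 4664 lower to 6957 and 1796. The lists were drawn up with earlier results of these data known.

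Of 20 tested genes that supply arachidonic acid or return it to membranes, 10 were lower, 4 higher and 6 not called (median log2 fold change -0.20). For all genes tested the shares were 32.7% lower and 33.9% higher. On log2(TPM + 1), 6 of the list were lower. Secreted phospholipases were among the falls: Pla2g3 fell by 2.61, Pla2g12b by 2.60 and Pla2g1b by 2.25 on the log2 scale, with adult means of 1.27, 7.74 and 3.06 TPM. DESeq2 did not call Pla2g1b (adjusted p = 0.0828). Pla2g1b, Pla2g3 and Pla2g2f, another of the falls, had under 10 counts in each fetal library. They entered the test through the adult libraries alone, which fixes their direction. Rises were led by the lysosomal phospholipase Pla2g15 (1.17), the arachidonate-activating enzyme Acsl4 (0.91) and the fatty acid elongase Elovl5 (0.77), given as log2 fold changes. In TPM Acsl4 went from a mean of 12.8 to 32.8, beside 10.1 to 20.9 for Pla2g4a.

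Of 6 tested enzymes that make or convert other prostanoids, 2 rose and 4 fell (median -1.43). The aldo-keto reductases Akr1b8 and Akr1b3, the second a known prostaglandin F synthase, rose by 1.82 and 1.32 on the log2 scale. The carbonyl reductases Cbr3 and Cbr1 fell by 4.25 and 2.56, and Fam213b (Prxl2b), another prostaglandin F synthase, by 1.70. The lipocalin-type D synthase Ptgds and the prostacyclin synthase Ptgis held at most 4 counts in any library.

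In the breakdown and transport group, 2 of 7 rose, 4 fell (2 on log2(TPM + 1)) and 1 was not called. Hpgd, the enzyme that begins prostaglandin inactivation, went from 18.0 and 20.3 TPM to 7.62 and 6.02 TPM, a fall by 1.87 on the log2 scale. Summed cyclooxygenase TPM was thus 0.119 and 0.148 times that of Hpgd in the adult libraries and 3.82 and 4.72 times in the fetal ones. Ptgr1 and Ptgr2, also in this group, fell by 2.53 and 0.59 on the log2 scale. Ptgr1 went from a mean of 128 TPM in adult to 28.9 TPM in fetal libraries. The Ptgr2 call was lost with limma on log2(TPM + 1) (adjusted p = 0.0955). Among exporters and carriers, Slco3a1 rose by 6.01 and Abcc4 by 1.45 on the log2 scale. Slco3a1 had under 10 counts in each adult library and entered the test through the fetal libraries alone, which fixes its direction.

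Few receptors were measurable, with 3 of 10 tested. Ptger4, a receptor of prostaglandin E2, fell by 0.72 on the log2 scale (edgeR, adjusted p = 0.000528), a call lost on log2(TPM + 1) with limma (adjusted p = 0.108). Ptger1 was not called, and Ptgfrn, a partner protein of the F receptor and not itself one, rose by 0.58. Ptger2 had 0 counts in 3 libraries and 1 in a fetal library.

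Of 5 tested genes in the lipoxygenase branch, which draws on the same arachidonic acid, 3 were higher and 2 lower. The 3 higher genes, Alox12, Alox5 and Ltc4s, had under 10 counts in each adult library and entered the test through the fetal libraries alone, so they could only be higher. Alox12 had 0 counts in adult and 34 and 24 in fetal libraries, at least 7.45-fold higher against a floor of 3 counts per library. Alox5 had 3 adult and 40 fetal counts, a ratio of 10.4 (95% counting interval 3.31 to 52.5). The epoxide hydrolase Ephx2 fell by 2.10 on the log2 scale. Ltc4s, a leukotriene synthase called at a log2 fold change of 1.65, missed the threshold of edgeR when either adult library (adjusted p = 0.0661 and 0.0705) or fetal replicate 1 (adjusted p = 0.0731) was left out.

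Known regulators of Ptgs2 moved both ways, 8 higher, 6 lower and 1 not called of 15. Fosl1, an AP-1 subunit, rose by 5.14 on the log2 scale, the RNA-binding protein Celf2 by 4.38 and the C/EBP factor Cebpd by 1.60. With under 10 counts in each adult library, Fosl1 entered the test through the fetal libraries alone, which fixes its direction. Jun fell by 2.20, Zfp36, whose product destabilises Ptgs2 RNA, by 0.76, and Fos by 0.56. The Fos call was lost with limma on log2(TPM + 1) (adjusted p = 0.0593). With library totals 3 were lower, and on log2(TPM + 1) 2 were.

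**Figure D4:**
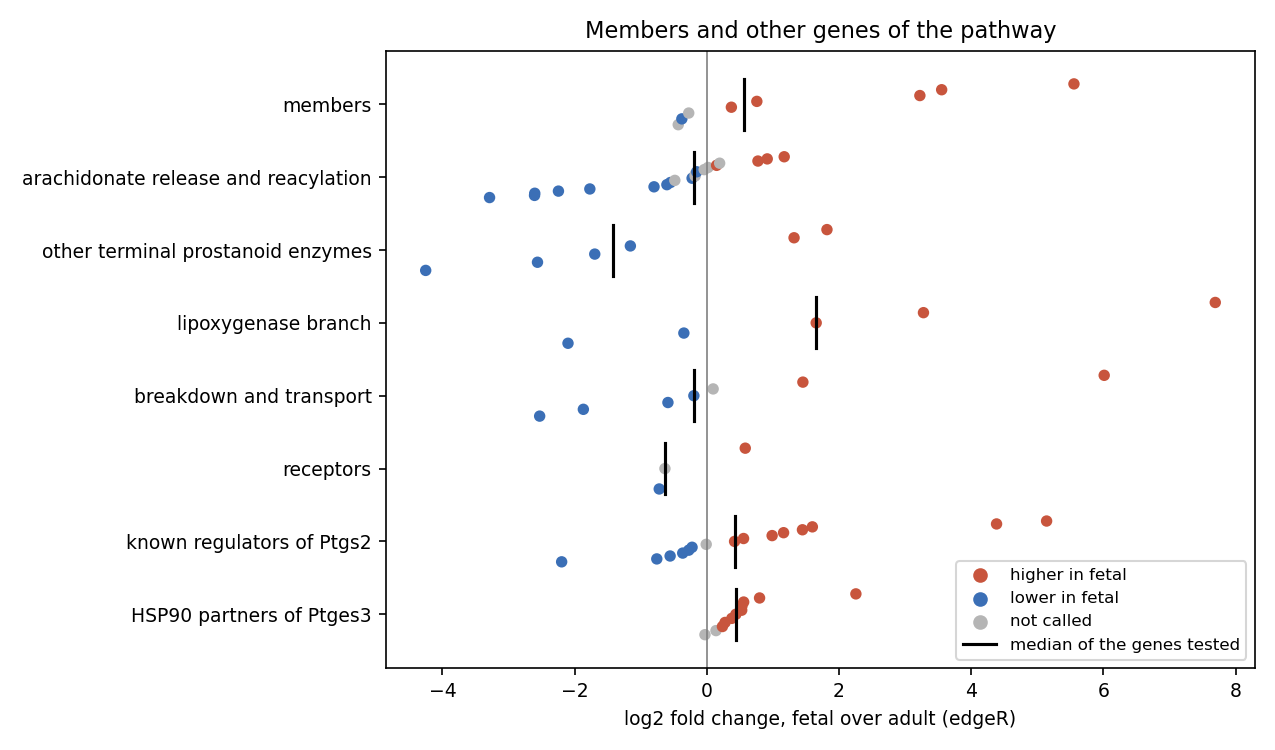
Log2 fold change of fetal over adult organoids (horizontal axis, edgeR) for the 8 members and for the tested genes of each list (points, coloured by call), with the median of each (black line). The members' 3 large rises stand beside lists whose medians run from -1.43 to 1.65.

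Other cell types known to express these enzymes left the following traces. Tuft cell markers were found for 11 of 14 genes at summed levels of 4.28 to 4.43 TPM in adult and 2.90 to 2.92 TPM in fetal libraries. Of 4 tested, 3 fell: Il17rb (by 1.85 on the log2 scale), Trpm5 and Pou2f3. Adult counts alone brought these 3 into the test, which fixes their direction. Avil was not called, though with library totals it was called higher (edgeR, adjusted p = 0.0199). Dclk1 had too few counts to be tested, 7 and 6 in adult and 13 and 9 in fetal libraries, and so did not go with the falls. Gnat3, Il25 and Chat were at 0 in every library. Of 12 myeloid markers, summed levels were 3.19 to 5.16 TPM in adult and 15.4 to 18.2 TPM in fetal libraries, mostly from Cd68 and Lyz2. Of 3 myeloid markers tested, these 2 were higher and Itgam was lower, with 28 and 15 adult counts against 3 and 1 fetal counts. Lyz2, with 5.26 and 3.14 adult counts, entered the test through the fetal libraries alone. Itgam entered through the adult libraries alone, so the direction of both was fixed. Ptprc, the pan-leukocyte marker, was at 0 in both fetal libraries. Mast cell markers other than Kit, which fell by 2.41, held at most 3 counts in any library. Of 6 endothelial markers none had enough counts to be tested, and their summed levels were 0.37 to 1.22 TPM in adult and 0.45 to 0.62 TPM in fetal libraries.

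Mesenchymal markers, which mark cells that can also express Ptgs1, Ptgs2 and Ptges, were higher as well. All 12 had a count in some library, 6 of 7 tested were higher and none lower (Pdgfrb was not called), and summed levels were 2.61 to 3.90 TPM in adult and 36.8 to 36.9 TPM in fetal libraries. Of those 6, Col1a1, Col1a2, Col3a1, Pdgfra and Dcn had under 10 counts in each adult library and entered the test through the fetal libraries alone, which fixes their direction. Col3a1 had 0 counts in adult and a mean of 13.7 TPM in fetal libraries, and Vim went from 2.60 to 11.0 TPM; Thy1 and Des stood at 2 counts or fewer in each library. Whether such cells contributed to the Ptgs1, Ptgs2 or Ptges reads was not tested. In bulk RNA, more cells of a type and more RNA per cell cannot be told apart.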

How the data were processed

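RNA of 2 adult and 2 fetal organoid libraries was compared. The deposited expected counts are RSEM estimated counts per Ensembl gene with no normalization, and the deposited TPM were scaled by the authors for gene length and to 1 total per library, per the file headers. The tools in the submitters' processing notes are RSEM 1.3.3, STAR 2.7.3a, Trim Galore and FastQC, and the builds are GRCm39 and mm10. Which build, annotation and strand setting made the tables was not stated. GENCODE M21 named 52083 of 55416 identifiers.

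Rounded counts went into edgeR 4.0.16 under R 4.3.3 (TMM, filterByExpr by group, glmQLFTest, fetal against adult, Benjamini-Hochberg adjustment over 14271 genes). The code was tested on simulated data in which few genes changed, equally up and down. That test did not cover a shift in library composition such as the one here. Standard errors derive from the F statistic. Counting intervals are exact 95% Clopper-Pearson intervals on the split of summed counts and cover counting error only, as PCR copies can repeat a molecule. The floor, 3 counts, equals 0.210 to 0.301 CPM. Replicates differed beyond sampling noise (chi-square per degree of freedom 3.30 in adult, 2.81 in fetal). Each library counts once, although this spread cannot show that the libraries of a stage are independent. Members and lists were chosen with earlier results of these data known. Named are the members, up to 3 called genes per direction and list at 1 TPM or more, the 2 most abundant markers per list and the 2 genes nearest to Ptgs1, Ptgs2 and Ptges (those of the other members are not reported here); other genes named were chosen after their values were seen. RefSeq promoters (GRCm38.p6) matched 8 of 8 members. Alternatives included DESeq2 1.42.0 and limma 3.58.1.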

Additional observations from a re-analysis of the deposited data

How the results depend on the processing

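The counts of calls and each member's change were recomputed under 16 alternatives. The calls of Pla2g4a, Ptgs1, Ptgs2, Ptges and Ptges3 kept direction and threshold in all 16. Under the main filter and the TPM filter, Ptgs1 and Ptges entered through the fetal libraries alone, which fixes their direction there. With no filter in edgeR, their log2 fold changes were 3.56 and 5.56. Ptges2 was no longer called with library totals (-0.13) or with limma on TPM (-0.031, -0.032 and -0.031 under the 3 settings). Hpgds and Tbxas1 were called in none of the 13 that gave them a value. Hpgds changed sign without adult replicate 1 (0.06) and without fetal replicate 1 (0.16), ranging from -0.85 to 0.16 over the 4 left-out libraries, and Tbxas1 changed sign with limma on unfiltered TPM (0.12). Neither reached the stricter filter of 1 CPM in 2 libraries or the TPM filter. Lta4h, called lower, was at 0.10 under the limma settings. Genes called lower numbered 2973 with library totals and 1796, 1752 and 1728 with limma on log2(TPM + 1), log2(TPM + 0.1) and unfiltered TPM, and other pathway genes called lower 15 under each limma setting; the median log2 change of all genes was 0.25 with library totals and 0.36 on log2(TPM + 1), and was not computed for the other limma settings. In TMM-scaled CPM the Ptgs2 share of the cyclooxygenases was 91.4% in adult and 89.1% in fetal libraries, against 74.6% and 79.9% on TPM; without single libraries the TPM shares ran from 68.9% to 80.4% and from 79.6% to 80.2%. None (0) of the 16 nearest genes by CPM was nearest on TPM. With the replicate number as a block, 4765 genes were higher and 4584 lower and no member's call changed. Same-numbered libraries did not deviate together across genes (r = -0.01). With so few libraries this cannot show whether they shared a batch, and the labels state no pairing. Depth limits Hpgds and Tbxas1 most, at 7 to 13 counts per library, and the adult levels of Ptgs1 and Ptges.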

Other observations

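Ptgs2os, a noncoding gene next to Ptgs2 and read from the other strand, stood at 7 and 8 fetal counts and at 0 in each adult library, at least 1.95-fold higher against a floor of 3 counts per library. It shares no exon bases with Ptgs2 in GENCODE M21. Of the 8 members, Ptgs1 and Tbxas1 overlap an exon of another gene on the opposite strand, by 148 and 144 bases. Those genes held at most 4 counts in any library.

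The genes closest to a member in level over the 4 libraries (smallest distance in log2 CPM) were Tlr5, a receptor for bacterial flagellin, and Loxl4, a lysyl oxidase, for Ptgs1, at distances of 0.29 and 0.31. For Ptgs2 they were AA986860 and Tnfaip8 (0.30 and 0.38), and for Ptges H2afy2 and Cacnb2 (0.52 and 0.52). With 4 libraries in 2 groups, such nearness describes level and nothing more.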
